A study of Homo sapiens with 36 samples.

Results

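The muscle actin and contractile genes described here are the skeletal actin ACTA1, the smooth muscle actins ACTA2 and ACTG2, the cardiac actin ACTC1, the actin binding proteins TAGLN and CNN1, the myosin light chain MYL9, the troponin TNNC2, the calcium pump regulator SLN and the intermediate filament protein DES. They were taken by gene symbol from the authors' table of 34687 genes, and all 10 were found. They had been picked because several were high on day 0 and then took different courses, so their levels in all 12 groups chose them. Their levels and differences are therefore given as a description, with no test. Of the 10 genes, 9 passed the filter on dim signals that left 22787 genes for testing, and DES did not.

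Actins assemble into the thin filaments on which myosin motors pull, and vertebrates have separate actin genes for skeletal, cardiac, vascular smooth and enteric smooth muscle beside the cytoplasmic actins of every cell. Transgelin (TAGLN) and calponin (CNN1) bind the filaments of smooth muscle, MYL9 is the regulatory light chain of smooth muscle and non-muscle myosin II, and TNNC2 is the calcium-binding subunit of troponin in fast skeletal fibres. Many of these genes are controlled by the serum response factor SRF, which binds a short A- and T-rich sequence called the CArG box together with myocardin family cofactors that sense free actin.

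Gene expression was measured in triplicate on 36 Illumina beadchips from WA09, an established human embryonic stem cell line that was grown on mouse embryonic fibroblast feeders and plated on matrigel for differentiation. The BE cultures (melanocyte differentiation) received 100 nM LDN-193189, 10 µM SB431542, 3 µM CHIR 99021, 25 ng/ml BMP4 and 100 nM EDN3 and were collected on days 8 and 11. The NC (neural crest) cultures received LDN-193189, SB431542 and CHIR 99021 at those doses, the DSi (central nervous system) cultures LDN-193189 and SB431542 alone, and both were collected on days 3, 6, 8 and 11. Of these compounds, LDN-193189 blocks BMP type I receptors, SB431542 the type I receptors of activin, Nodal and TGF-beta, and CHIR 99021 inhibits GSK3 and so activates WNT signalling. Cells of day 1 and of day 0 formed a group each. Both carry the names LDN-193189 and SB431542 in their labels without a condition, and whether either compound had reached day 0 cells is not stated. The titles carry a prefix that goes with the replicate number through all groups, but the labels do not say what it marks. Whether replicates were separate cultures or repeat samples of 1 culture is thus not stated. The p-values below cover only the variation among these arrays, technical variation included. One DSi title, that of day 3 replicate 1, misses a suffix present on the rest, and the array was grouped by its remaining labels.

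Counting a marker where at least 2 arrays of a group were above background, 6 of 6 pluripotent stem cell markers were present on day 0. Of 6 neural crest markers, 6 were above background in NC cultures on day 11, against 3 in DSi cultures. Of 6 melanocyte markers, 6 were above background in BE cultures on day 11, against 5 in NC and 4 in DSi cultures. Their summed signal per array was 16229 to 18893 in BE, 2725 to 4285 in NC and 4883 to 8688 in DSi cultures. Neural progenitor markers were above background for 5 of 6 in DSi cultures on day 11, against 3 in NC and 3 in BE cultures. Between 16055 and 19724 probes per array were above background, and the number of arrays limits the precision. Because RNA came from whole cultures, fewer cells of a type and less RNA per cell cannot be told apart.

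Upstream sequences are shown for the 5 genes with an entry in the promoter table, since ACTA1, ACTG2, CNN1 and ACTC1 were all high on day 0 and ACTA2 took the opposite course. Each is the 250 bases before a transcription start in RefSeq (assembly GRCh38.p14), on the strand of the gene, with CArG boxes in capitals. In ACTA2, whose second listed start is shown, the capitals mark boxes in which 1 inner base is C or G, since it had no exact box, and in CNN1 nothing is capitalised because neither kind was found.
ACTA1 (chr1:229434095-229434344, minus strand): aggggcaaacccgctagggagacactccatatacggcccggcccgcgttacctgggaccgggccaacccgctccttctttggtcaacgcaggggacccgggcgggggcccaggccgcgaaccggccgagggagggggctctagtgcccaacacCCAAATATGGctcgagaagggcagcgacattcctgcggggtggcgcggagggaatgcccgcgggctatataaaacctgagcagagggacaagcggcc
ACTG2 (chr2:73892758-73893007, plus strand): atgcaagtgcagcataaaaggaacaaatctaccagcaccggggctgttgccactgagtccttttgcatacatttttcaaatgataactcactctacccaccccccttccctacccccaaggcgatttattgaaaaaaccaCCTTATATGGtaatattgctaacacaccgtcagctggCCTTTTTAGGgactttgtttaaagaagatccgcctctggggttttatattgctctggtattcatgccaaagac
ACTC1 (chr15:34795550-34795799, minus strand): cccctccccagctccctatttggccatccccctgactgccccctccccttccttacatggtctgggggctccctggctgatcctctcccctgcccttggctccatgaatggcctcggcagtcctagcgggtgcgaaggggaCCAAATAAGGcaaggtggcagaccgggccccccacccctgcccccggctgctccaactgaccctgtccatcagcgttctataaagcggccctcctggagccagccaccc
ACTA2 (chr10:88952774-88953023, minus strand): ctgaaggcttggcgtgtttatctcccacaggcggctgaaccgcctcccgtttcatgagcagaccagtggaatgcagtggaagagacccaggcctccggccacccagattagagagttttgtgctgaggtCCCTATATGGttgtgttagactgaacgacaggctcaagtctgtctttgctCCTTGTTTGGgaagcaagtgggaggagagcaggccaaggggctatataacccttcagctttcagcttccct
CNN1 (chr19:11538601-11538850, plus strand): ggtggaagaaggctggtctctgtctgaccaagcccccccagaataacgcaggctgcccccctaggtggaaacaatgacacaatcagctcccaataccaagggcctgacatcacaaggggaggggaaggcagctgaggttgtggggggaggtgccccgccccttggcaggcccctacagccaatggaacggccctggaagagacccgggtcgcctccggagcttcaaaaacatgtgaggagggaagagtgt

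An exact CArG box, searched on both strands, lay 97 to 88 bases upstream of the ACTA1 start and 109 to 100 bases upstream of the first ACTC1 start. ACTG2 had 2 boxes, at 110 to 101 and 73 to 64 bases upstream. Of 35116 human promoter windows of this length in the table, 1.16% held such a box. The ACTA2 window held 2 boxes in which 1 inner base was C or G, at 121 to 112 and 71 to 62 bases upstream, and 5.96% of all windows held a box of that looser kind. Boxes of the looser kind were also found in ACTA1, which held 2, and before the first ACTC1 start, which held 3. The first listed ACTA2 start, the other ACTC1 starts and the CNN1 window held neither kind. TATAAA on the gene's strand was found in ACTA1 and ACTC1, and in 6.8% of all windows. These matches describe the letters alone.

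**Figure D1:**
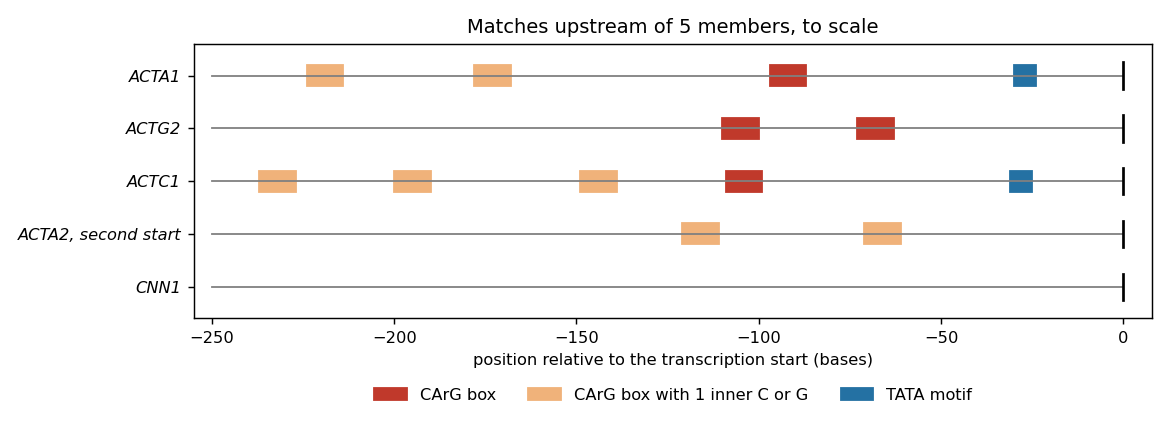
Positions of CArG boxes (red), of CArG boxes with 1 inner C or G (orange) and of the TATA motif (blue) in the 250 bases before the start of 5 genes, drawn to scale with the start as a black bar at 0. The exact boxes of ACTA1, ACTG2 and ACTC1 lie between 110 and 64 bases upstream.

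Levels below are background-corrected, quantile-normalized signals on the log2 scale, 1 value per array, and can be compared between groups within a gene but not between genes. A signal counted as above background with a detection p-value under 0.05. Differences are given with the standard error of the model fitted to all 36 arrays. That error pools the spread of all groups, so it does not widen where the arrays of 1 group spread widely.

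ACTA1, the actin of skeletal muscle thin filaments, was above background on all 36 arrays and had its highest level on day 0. The 3 arrays of day 1 read 11.63, 11.60 and 12.24, against 12.95, 13.24 and 13.26 on day 0. The level was lower by 1.32 ± 0.31 (SE) on day 1, and the arrays of the days did not overlap. On day 3 it averaged 9.14 ± 0.56 in NC and 9.57 ± 0.26 in DSi cultures (SD, n = 3 each), a difference within the spread of the arrays. On day 6 NC and DSi still overlapped, at 8.27 ± 0.17 and 8.11 ± 0.20 (SD, n = 3 each). On day 8 the NC arrays read 9.12, 8.90 and 9.17 and the DSi arrays 8.05, 8.17 and 7.82, so that NC stood above DSi by 1.05 ± 0.31 without overlap.

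On day 11 the BE cultures had the lowest ACTA1 mean of the 12 groups, with readings of 5.65, 7.15 and 5.81. The NC arrays read 8.72, 9.40 and 8.63 on that day, and the DSi arrays 7.15, 8.58 and 6.44. BE stood below NC by a log2 difference of -2.71 ± 0.31, a 6.56-fold difference, and NC stood above DSi by 1.53 ± 0.31. Neither pair overlapped, although the DSi arrays spread widely (SD 1.09) and replicate 2 was the highest of the BE and of the DSi arrays. Without replicate 2 the BE mean was 5.73 in place of 6.21, and the DSi mean 6.79 in place of 7.39. Ordered by mean level, the groups from DSi day 3 down to NC day 11 each overlapped with their neighbour, as did those from NC day 6 down to BE day 11.

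ACTG2, the actin of enteric smooth muscle, was above background on 19 of 36 arrays. It read 10.52, 11.00 and 10.75 on day 1, against 11.47, 12.01 and 11.59 on day 0. On day 3 the NC arrays read 5.42, 7.72 and 5.95 and the DSi arrays 5.23, 7.48 and 6.34. The DSi mean on day 3 lay 4.41 ± 0.42 log2 units under that of day 1, a 21.2-fold difference without overlap. In both day 3 conditions replicate 2 was the highest array, and without it the means were 5.68 in place of 6.36 for NC and 5.79 in place of 6.35 for DSi.

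On days 6 and 8 ACTG2 was at background on every array of every condition. Such a level is only a bound, so the fold is given as a minimum. It sets the mean of the bright group against a floor, which on each array of the dim group is the faintest signal still above background or, if that is larger, the reading of the gene itself. By that measure ACTG2 was at least 91.1-fold lower in NC cultures and at least 90.9-fold lower in DSi cultures of day 6 than on day 0. On day 11 the gene was again above background in BE cultures (5.17, 7.10 and 5.26) and NC cultures (6.20, 6.15 and 6.07), and on 1 of 3 DSi arrays (4.77, 5.75 and 4.65). The NC readings of day 11 were at least 2.01-fold higher than on day 8 and did not overlap with the DSi readings of day 11. The BE arrays overlapped with both, and without replicate 2 their mean was 5.22 in place of 5.84.

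ACTC1, the actin of cardiac muscle and of fetal skeletal muscle, was above background on all 36 arrays with its brighter probe, whose values follow. A second ACTC1 probe was above background on 5 of 36 arrays, with group means between 4.66 and 5.06, and showed none of the differences below. With the brighter probe the gene read 9.43, 9.60 and 10.02 on day 1, against 12.65, 12.90 and 12.51 on day 0, lower by 3.00 ± 0.33 without overlap. On day 3 NC cultures averaged 8.14 ± 0.56 and DSi cultures 8.29 ± 0.70 (SD, n = 3 each), and the arrays overlapped. From day 6 on, NC and DSi cultures were apart on every day. On day 6 the NC arrays read 8.10, 7.98 and 8.11 and the DSi arrays 5.54, 5.98 and 6.00, a difference of 2.22 ± 0.33.

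On day 8 ACTC1 read 12.62, 12.96 and 12.75 in BE cultures, 10.80, 11.27 and 11.07 in NC cultures and 5.55, 6.24 and 6.76 in DSi cultures. The 3 conditions did not overlap: BE stood above NC by 1.73 ± 0.33, and NC above DSi by 4.87 ± 0.33, a 29.2-fold difference. On day 11 the BE arrays read 11.79, 12.78 and 11.84, the NC arrays 12.41, 13.16 and 12.61 and the DSi arrays 7.94, 10.03 and 9.78. BE and NC overlapped on that day, and NC stood above DSi by 3.48 ± 0.33 without overlap. DSi was itself higher on day 11 than on day 8, by 3.07 ± 0.33, with its replicate 1 lowest; without that array its mean was 9.91 in place of 9.25. The 4 groups with the highest means, BE day 8, NC day 11, day 0 and BE day 11, overlapped from each to the next.

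ACTA2, the actin of vascular smooth muscle, was the only one of the 9 genes whose lowest mean fell on day 0 with every array above background. It read 8.07, 8.30 and 7.72 on day 1, against 6.88, 7.39 and 7.19 on day 0. On day 3 it averaged 8.09 ± 0.12 in NC and 7.94 ± 0.17 in DSi cultures (SD, n = 3 each), close to day 1, and on day 6 it averaged 9.09 ± 0.05 in NC and 9.36 ± 0.16 in DSi cultures. On day 8 the BE arrays read 10.45, 10.70 and 10.63, the NC arrays 10.54, 10.34 and 10.77 and the DSi arrays 9.76, 9.53 and 9.78. BE and NC overlapped on day 8, and NC stood above DSi by 0.86 ± 0.16.

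By day 11 all 3 conditions had reached the same ACTA2 level within the spread of their arrays, at 10.67 ± 0.30 in BE, 10.66 ± 0.10 in NC and 10.74 ± 0.14 in DSi cultures (SD, n = 3 each). These levels lay above day 0 by 3.52 ± 0.16, 3.51 ± 0.16 and 3.59 ± 0.16 in the same order, with no overlap. The actin genes are related in sequence. The probe sequences are not used here, so whether a probe also binds the transcript of another actin was not tested. Over the 12 group means Pearson's r was 0.88 between ACTA1 and ACTG2, -0.77 between ACTA1 and ACTA2 and 0.21 between ACTA1 and ACTC1.

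**Figure D2:**
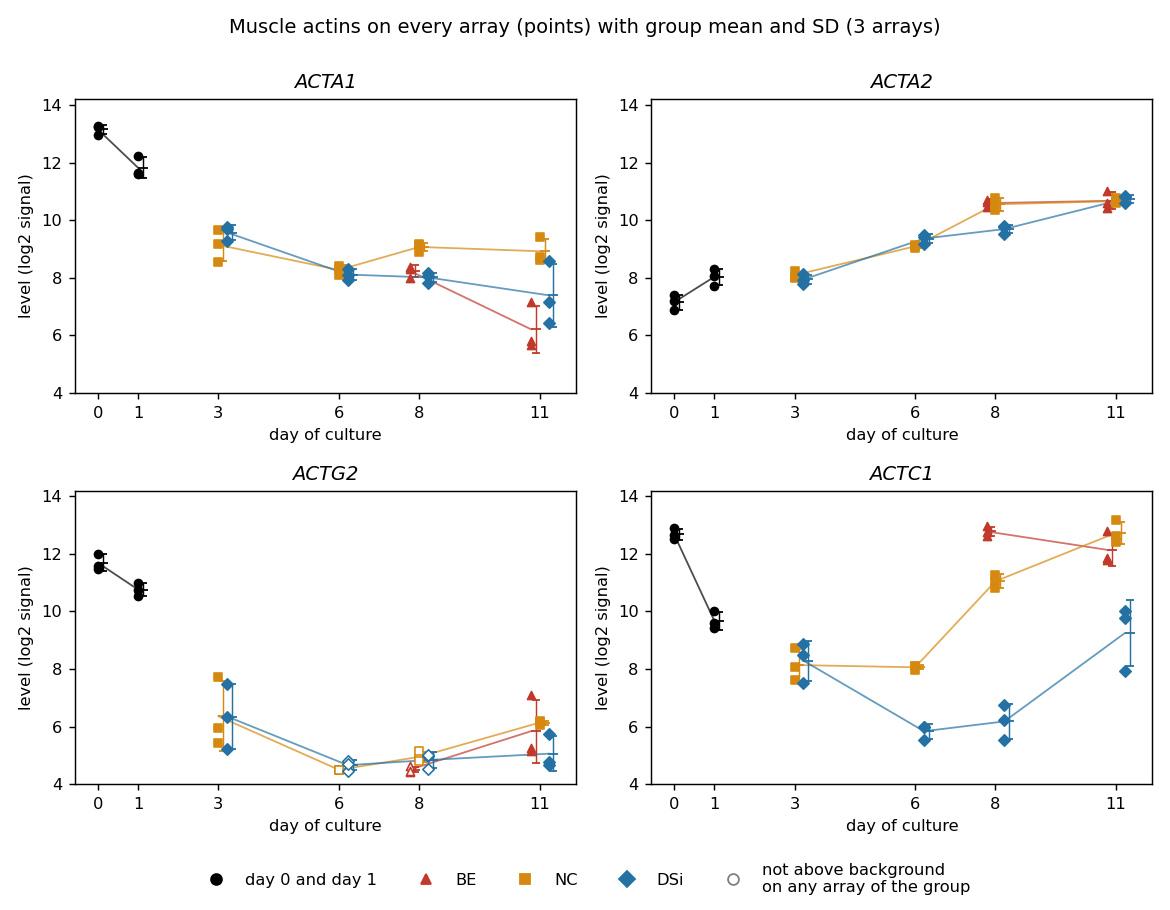
Levels (log2 signal) of 4 muscle actins against the day of culture, with every array as a point, the group mean joined by lines and the SD of 3 arrays as a bar; open points mark groups with no array above background. ACTA1 and ACTG2 are highest on day 0, ACTA2 is lowest there, and ACTC1 on day 11 reads 11.79 to 13.16 in BE and NC cultures and 7.94 to 10.03 in DSi cultures.

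TAGLN, an actin-bundling protein used as an early smooth muscle marker, read 12.33, 12.70 and 12.86 on day 1, against 13.55, 13.57 and 13.58 on day 0. On day 3 it averaged 10.52 ± 0.79 in NC and 10.54 ± 0.84 in DSi cultures (SD, n = 3 each). The wide spread on day 3 came with replicate 2 as the highest array in both conditions, at 11.30 in NC and 11.32 in DSi cultures. After day 3 the gene stayed on a middle level. On day 8 it read 11.23, 11.52 and 11.24 in BE, 10.95, 10.53 and 11.27 in NC and 9.83, 9.97 and 9.71 in DSi cultures, so that NC stood above DSi by 1.08 ± 0.27 and BE overlapped with NC. On day 11 the means were 10.72 in BE, 10.68 in NC and 10.65 in DSi cultures, and the arrays overlapped. A second TAGLN probe followed the same order at day 0 and day 3, with 8.49 ± 0.82 in NC and 8.67 ± 0.99 in DSi cultures of day 3, against 12.07 ± 0.15 on day 0 (SD, n = 3 each), and another was above background on 3 arrays only.

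CNN1, a calponin that restrains actomyosin in smooth muscle, was above background on 20 of 36 arrays. It read 7.60, 6.96 and 8.19 on day 1, against 8.80, 8.95 and 8.53 on day 0, lower by 1.18 ± 0.29 without overlap. From day 3 to day 8 its group means lay between 5.11 and 5.65, with 1 to 3 arrays of each group above background and neighbouring groups overlapping. On day 11 no array of any condition was above background. The gene was then at least 12.4-fold lower in BE, at least 12.3-fold lower in NC and at least 12.1-fold lower in DSi cultures than on day 0.

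MYL9, the light chain whose phosphorylation switches on smooth muscle and non-muscle myosin II, had the narrowest span of group means among the 9 genes, 2.18 on the log2 scale. It read 8.78, 8.82 and 8.82 on day 1, against 9.50, 9.71 and 9.18 on day 0. On day 8 it read 8.34, 8.56 and 8.75 in BE, 7.97, 7.50 and 8.02 in NC and 7.58, 7.24 and 7.53 in DSi cultures. BE stood above NC by 0.72 ± 0.20 without overlap, and NC and DSi overlapped. On day 11 the means were 7.96 ± 0.24 in BE, 7.61 ± 0.37 in NC and 7.58 ± 0.04 in DSi cultures (SD, n = 3 each), with BE and NC overlapping. A second MYL9 probe gave 8.70 ± 0.33 in BE, against 7.99 ± 0.20 in NC cultures on day 8 (SD, n = 3 each). Across the 12 group means MYL9 and TAGLN had the highest correlation of any pair, with r = 0.96.

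TNNC2, the fast skeletal troponin C, was above background on 5 of 36 arrays, and 3 of these were the NC arrays of day 11. They read 8.95, 9.80 and 9.48, against 4.52, 4.66 and 4.51 in NC cultures of day 8, where no array was above background. On day 11 the BE arrays read 4.45, 4.58 and 5.19, with 1 above background, and the DSi arrays 4.41, 4.44 and 4.54, with none. The level of NC day 11 was at least 18.9-fold higher than that of DSi day 11 and at least 19.3-fold higher than that of NC day 8. The 3 NC arrays lay above the 3 BE arrays of that day, for which no fold is given because 2 of them were at background. One further array, of day 0, was above background.

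SLN encodes sarcolipin, a small membrane peptide that lowers the activity of the sarcoplasmic reticulum calcium pump, and was above background on 16 arrays. On day 0, on day 1, in DSi cultures of day 3 and in both cultures of day 6 every array was at background. On day 8 it read 10.50, 10.02 and 9.53 in BE, 6.63, 7.50 and 6.22 in NC and 5.05, 5.16 and 5.12 in DSi cultures, where 1 array was above background. The 3 conditions did not overlap, and BE stood above NC by 3.23 ± 0.35, a 9.39-fold difference. On day 11 it read 8.99, 9.62 and 7.80 in BE, 8.80, 8.59 and 9.22 in NC and 4.98, 5.49 and 6.80 in DSi cultures. BE and NC overlapped on that day, and both lay above DSi, NC by 3.11 ± 0.35. Relative to day 0, SLN was at least 28.8-fold higher in BE cultures of day 8 and at least 12.4-fold higher in BE cultures of day 11.

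DES, the desmin of muscle intermediate filaments, was above background on 0 of 36 arrays, with group means between 4.44 and 4.57. It has only an upper bound in every group, and no fold is given.

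**Figure D3:**
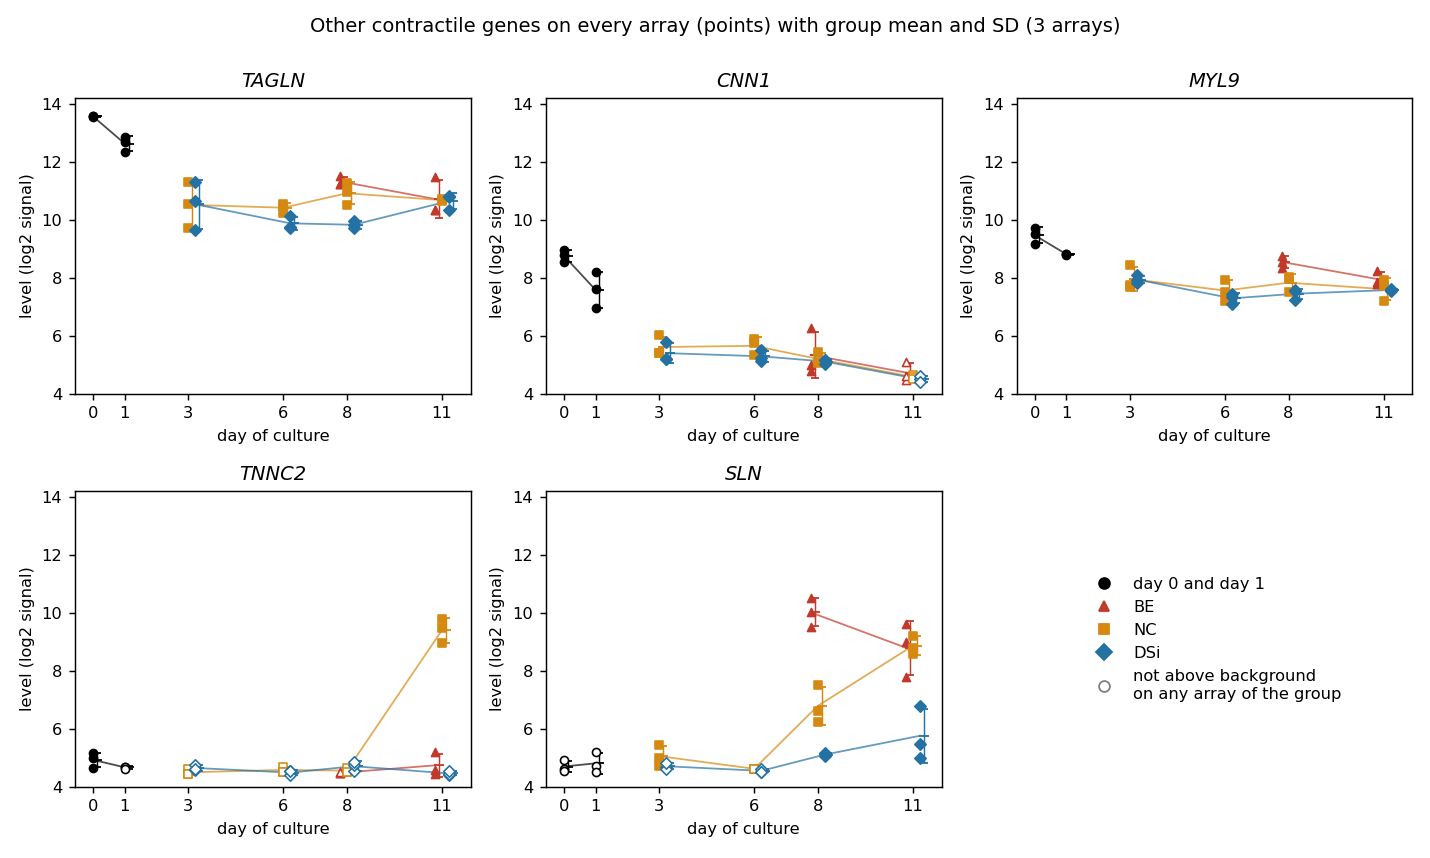
Levels (log2 signal) of TAGLN, CNN1, MYL9, TNNC2 and SLN against the day of culture, with every array as a point, the group mean joined by lines and the SD of 3 arrays as a bar; open points mark groups with no array above background. TNNC2 stands out only in NC cultures of day 11, and SLN is highest in BE cultures of day 8.

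For a count over the genes, a gene was taken as higher or lower where its mean differed by at least 1 on the log2 scale and the arrays of both groups did not overlap. The same count over all 22787 genes is given beside it; since these contrasts chose the genes, nothing is read from the counts. On day 1, 3 of 9 genes (ACTA1, ACTC1 and CNN1) were lower than on day 0 and 0 higher, where 0.939% of all genes were lower and 0.904% higher. The CNN1 difference was -0.87 without day 1 replicate 2. On day 3, 6 of 9 were lower than on day 0 and 0 higher in NC and in DSi cultures alike, namely ACTA1, ACTG2, ACTC1, TAGLN, CNN1 and MYL9. Of all genes 3.54% were lower and 3.48% higher in NC cultures of day 3, and 3.1% lower and 3.31% higher in DSi cultures.

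On day 11, 5 of 9 were lower and 2 higher in BE cultures than on day 0, 5 lower and 3 higher in NC cultures, and 6 lower and 2 higher in DSi cultures. Over all genes the shares were 6.3% lower and 7.05% higher in BE, 6.48% and 6.79% in NC, and 6.03% and 6.18% in DSi cultures. ACTA2 and SLN were higher in all 3 conditions, SLN in DSi cultures with 2 of 3 arrays above background and by 1.05, which was 0.53 without DSi replicate 3 and 0.98 without day 0 replicate 3, and TNNC2 was higher in NC cultures. The median log2 difference of the 9 genes was -1.51 in BE, -1.85 in NC and -2.91 in DSi cultures, beside -0.02, -0.02 and -0.01 for all genes. All comparisons with day 0 share its 3 arrays.

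Between conditions, 5 of 9 were higher and 0 lower in NC than in DSi cultures on day 11 (ACTA1, ACTG2, ACTC1, TNNC2 and SLN), where 2.69% of all genes were higher and 2.54% lower. ACTG2, at 1.09, was past the limit of 1 by little and read 0.94 without DSi replicate 1 and 0.88 without DSi replicate 3. In BE cultures of day 8, 2 of 9 (ACTC1 and SLN) were higher and 0 lower than in NC cultures, where 0.895% of all genes were higher and 0.272% lower. In BE cultures of day 11, 0 of 9 were higher and 2 lower (ACTA1 and TNNC2) than in NC cultures, where 2.26% of all genes were higher and 1.78% lower.

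**Figure D4:**
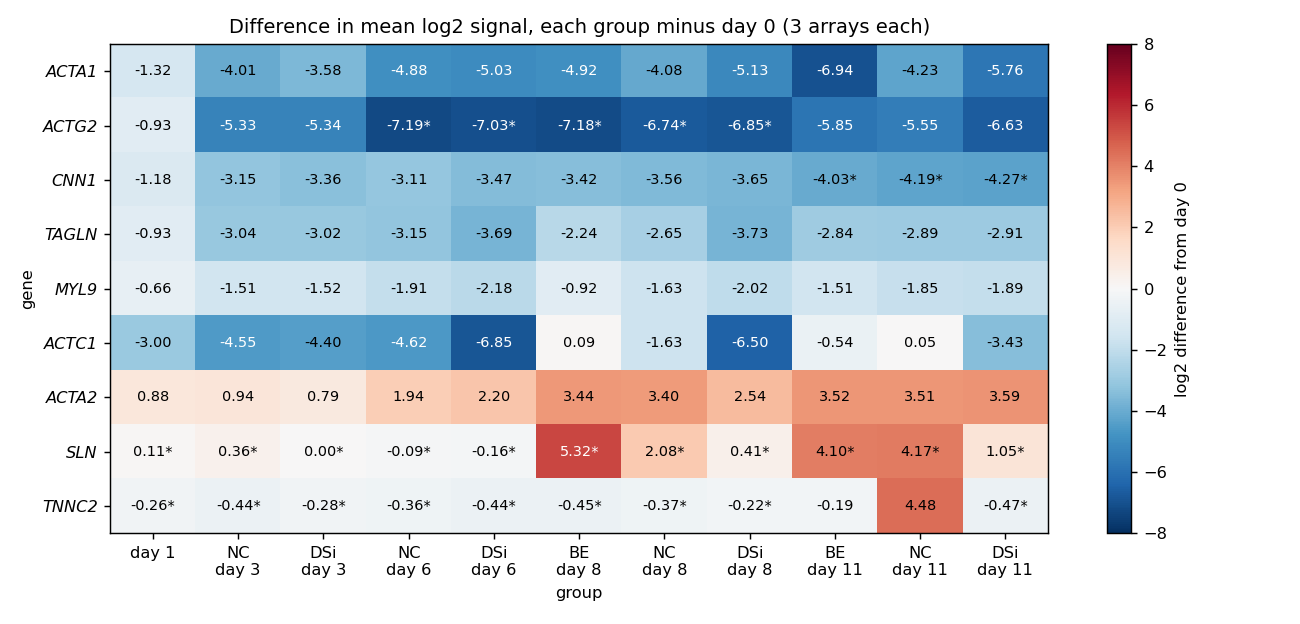
Difference in mean log2 signal of each group from day 0 (3 arrays each) for the 9 genes above the filter, red for higher and blue for lower than on day 0; an asterisk marks a difference in which 1 of the groups had no array above background. ACTA1, ACTG2, CNN1, TAGLN and MYL9 are lower in every later group, ACTA2 is higher in every later group, and ACTC1 returns to within 0.09 of day 0 in BE cultures of day 8 and NC cultures of day 11.

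Within each group, the array with the highest reading was noted for each of the 9 genes, readings at background included. Replicate 2 held the highest reading of 7 of 9 genes in BE cultures of day 11, of 6 in NC cultures of day 3 and of 5 in DSi cultures of day 3, in BE cultures of day 8 and on day 0. Replicate 3 held that of 6 in NC cultures of day 8 and of 5 in DSi cultures of day 6 and on day 1. In the other groups no array held that of more than 4. How these counts compare with chance or with all genes was not tested. Over the 36 arrays, deviations from the group mean correlated with r = 0.87 between ACTG2 and TAGLN, 0.70 between ACTA1 and ACTG2 and 0.67 between ACTG2 and ACTC1, all measured on the same arrays. For CNN1 and ACTG2 the same correlation was 0.08, although their group means correlated with r = 0.89.

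The genes with the most similar course were sought by Pearson's r over the 12 group means, among 2381 tested genes whose group means span at least 2 on the log2 scale. For TNNC2 they were OLIG2 (r = 0.995), a transcription factor, and SNCG (0.994), a synuclein, both highest in NC cultures of day 11. Since TNNC2 lay near background in all other groups, that group alone largely sets these r values. For SLN they were TLX2 (0.981), a homeobox gene, and RHOBTB3 (0.962), highest in BE cultures of days 8 and 11. For ACTA2 they were APPBP2 (0.989) and COL9A2 (0.966), a collagen chain, and for ACTC1 S100A6 (0.955), a calcium-binding protein, and CDK6 (0.94), a cell cycle kinase. For TAGLN they were JUN (0.954), an AP-1 subunit, and LCP1 (0.95), an actin-bundling protein. ACTG2 was closest to C7ORF57 (0.987) and LOC727935 (0.985), CNN1 to FOXD1 and HS.554324 (both 0.966), MYL9 to MGC4677 (0.944) and RAB15 (0.937), and ACTA1 to RPL36A and MGC87042 (both 0.937). With the authors' processed values both names were the same for 2 of the 9 genes.

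Other genes of the contractile apparatus were followed through 7 lists drawn up by function, holding 117 genes of which 95 were tested. For these, limma's moderated test decided the direction, at an adjusted p under 0.05 (Benjamini-Hochberg, over all 22787 genes). Against day 0, 2 of the 95 were higher and 18 lower on day 1, where 2.42% of all genes were higher and 2.0% lower. Of all genes called on day 1, 54.8% were higher, against 9.7% with arrays scaled to their medians over all probes and 23.1% with medians over the probes that passed the filter, and the listed genes then split into 1 higher and 24 lower and 2 higher and 23 lower. On day 3, 11 were higher and 32 lower in NC cultures (10.0% and 9.15% of all genes) and 8 higher and 29 lower in DSi cultures (8.75% and 8.01%). On day 11, 18 were higher and 26 lower in BE cultures (14.5% and 14.4% of all genes), 20 and 33 in NC cultures (15.0% and 14.4%), and 11 and 29 in DSi cultures (13.8% and 13.7%). When arrays were scaled to their medians over all probes, the split moved to 3 higher and 35 lower in NC and 3 and 30 in DSi cultures of day 3, and to 6 and 32 in DSi cultures of day 11. With medians over the probes that passed the filter it was 4 higher and 35 lower in NC and 5 and 33 in DSi cultures of day 3.

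Between conditions, 8 of the 95 were higher and 1 lower in BE than in NC cultures of day 8, where 1.25% of all genes were higher and 0.606% lower. On day 11, 12 were higher and 11 lower in BE than in NC cultures (4.7% and 4.08% of all genes), and 16 were higher and 14 lower in NC than in DSi cultures (5.56% and 5.57%). The counts by list below stand beside the same shares of all genes.

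Of 17 tested partners of smooth muscle type contraction, 6 fell and 0 rose on day 1 (2.0% and 2.42% of all genes). CALD1, the caldesmon that links actin and myosin, averaged 10.73 ± 0.13 on day 1, against 12.51 ± 0.11 on day 0 (SD, n = 3 each), a log2 difference of -1.77 ± 0.17 (limma adjusted p = 1.63e-10). CSRP1, a LIM protein of actin bundles, and TGFB1I1, a focal adhesion adaptor, fell with log2 differences of -1.68 ± 0.35 and -1.48 ± 0.27. On day 3, 11 of 17 fell and 3 rose in NC cultures (9.15% and 10.0% of all genes), and 10 fell and 1 rose in DSi cultures (8.01% and 8.75%). On day 11, 8 fell and 2 rose in BE (14.4% and 14.5% of all genes), 9 and 2 in NC (14.4% and 15.0%), and 7 and 6 in DSi cultures (13.7% and 13.8%). In these DSi cultures CALD1 averaged 9.70 ± 0.32 (SD, n = 3), a log2 difference from day 0 of -2.81 ± 0.17 (limma adjusted p = 3.37e-18). Between NC and DSi cultures of day 11, 8 of 17 were lower in NC and 0 higher (5.57% and 5.56% of all genes). TPM1, a tropomyosin, averaged 10.61 ± 0.29 in NC and 12.12 ± 0.06 in DSi cultures (SD, n = 3 each), a log2 difference of -1.51 ± 0.19 (limma adjusted p = 2.04e-08). MYLK, the kinase of MYL9, was lower in NC by a log2 difference of -1.77 ± 0.32, but its probes disagreed in direction.

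Of 20 genes in the list of the cytoplasmic actin cytoskeleton, 7 fell and 0 rose on day 1 (2.0% and 2.42% of all genes). On day 3, 14 fell and 0 rose in NC (9.15% and 10.0%), and 13 fell and 0 rose in DSi cultures (8.01% and 8.75%). The list also holds VIM, which encodes vimentin, an intermediate filament protein of mesenchymal and early cells rather than an actin partner. VIM averaged 10.97 ± 0.68 in NC and 10.64 ± 0.23 in DSi cultures of day 3, against 13.55 ± 0.20 on day 0 (SD, n = 3 each). TAGLN2, a broadly expressed relative of TAGLN, averaged 9.15 ± 0.41 on day 1, against 11.06 ± 0.35 on day 0 (SD, n = 3 each), a log2 difference of -1.90 ± 0.26 (limma adjusted p = 1.37e-06). On day 11, 10 fell in BE (14.4% of all genes), 13 in NC (14.4%) and 15 in DSi cultures (13.7%). In each, 1 rose, TAGLN3, the neuronal relative of TAGLN, where 13.8% to 15.0% of all genes rose. TAGLN3 averaged 7.31 ± 0.83 in BE, 10.95 ± 0.33 in NC and 8.58 ± 0.31 in DSi cultures of day 11, against 5.15 ± 0.55 on day 0 (SD, n = 3 each). Between BE and NC cultures of day 11, 6 of 20 were higher in BE and 2 lower (4.7% and 4.08% of all genes). FLNC, a muscle filamin, averaged 9.36 ± 0.15 in BE and 7.93 ± 0.13 in NC cultures (SD, n = 3 each), a log2 difference of 1.43 ± 0.20 (limma adjusted p = 2.94e-07).

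Of 20 tested sarcomere genes of striated muscle, 5 rose and 4 fell in BE cultures of day 11, 4 and 4 in NC, and 2 and 2 in DSi cultures. Over all genes 14.5% rose and 14.4% fell in BE, 15.0% and 14.4% in NC, and 13.8% and 13.7% in DSi cultures. No result about the list is read from these counts. MYL7, the atrial regulatory light chain, averaged 6.20 ± 0.28 on day 1, against 7.76 ± 0.08 on day 0 (SD, n = 3 each), and was at background on every NC and DSi array of day 3. It was at least 5.78-fold lower in NC and at least 5.99-fold lower in DSi cultures of day 3 than on day 0. Of the 20 genes, 5 rose and 2 fell in NC cultures of day 3 (10.0% and 9.15% of all genes). In DSi cultures of day 3, 4 rose and 2 fell (8.75% and 8.01%). ACTN3 rose by 2.83 ± 0.30 in NC and 2.99 ± 0.30 in DSi cultures, and TNNT1 by 1.97 ± 0.29 and 1.85 ± 0.29. MYL4, the atrial and fetal essential light chain, went the opposite way to MYL7 and was not above background on day 0. It averaged 9.29 ± 0.16 in BE and 7.65 ± 0.30 in NC cultures of day 8 (SD, n = 3 each), a log2 difference of 1.63 ± 0.25 (limma adjusted p = 1.85e-05). On day 11 it averaged 8.67 ± 0.18 in BE, 7.58 ± 0.09 in NC and 6.58 ± 0.26 in DSi cultures (SD, n = 3 each). MYOM1, a protein of the M-line, averaged 8.07 ± 0.28 in NC and 5.71 ± 0.55 in DSi cultures of day 11 (SD, n = 3 each), a log2 difference of 2.36 ± 0.26 (limma adjusted p = 1.07e-09).

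Of 11 tested genes of calcium handling, 3 were higher and 0 lower in NC than in DSi cultures on day 11 (5.56% and 5.57% of all genes). In BE cultures of that day, 0 were higher and 2 lower than in NC cultures (4.7% and 4.08%). SRL, the sarcalumenin that binds calcium in the sarcoplasmic reticulum, averaged 7.56 ± 0.49 in NC and 4.78 ± 0.28 in DSi cultures (SD, n = 3 each), where no DSi array was above background, so that it was at least 5.25-fold higher in NC. It was lower in BE than in NC cultures of day 11 by a log2 difference of -2.39 ± 0.28 (limma adjusted p = 9.3e-09). Both directions are those of TNNC2 on that day.

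Of 9 tested genes in the list of SRF and its cofactors, 0 rose or fell on days 1 and 3 in limma's test, and 1 had an unadjusted p under 0.05 on day 1 and 0 in either culture of day 3. On day 11, 4 rose and 1 fell in BE (14.5% and 14.4% of all genes), and 3 rose and 1 fell in NC cultures (15.0% and 14.4%). In DSi cultures of day 11, 0 rose and 1 fell (13.8% and 13.7%). SRF itself averaged 8.92 ± 0.29 in BE, 9.55 ± 0.30 in NC and 8.95 ± 0.51 in DSi cultures of day 11, against 10.14 ± 0.09 on day 0 (SD, n = 3 each), and fell in each. With arrays scaled to their medians over all probes SRF was also lower on day 1 (limma adjusted p = 0.0397) and in NC cultures of day 3 (0.00529), and over the probes that passed the filter on day 1 (0.0498) and in NC (0.00372) and DSi (0.0295) cultures of day 3. MEF2C, a MADS box relative of SRF, was not above background on day 0 or in DSi cultures of day 11 and averaged 7.20 ± 0.33 in BE and 6.20 ± 0.34 in NC cultures of day 11 (SD, n = 3 each). It was at least 4.1-fold higher in BE and at least 2.05-fold higher in NC cultures of day 11 than on day 0.

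Of 10 genes listed as immediate targets of SRF, 4 fell and 1 rose on day 1 (2.0% and 2.42% of all genes). SRF activity was not measured, and whether SRF had a part in these changes was not tested. CCN2 (CTGF in the table), a matricellular protein, averaged 10.39 ± 0.39 on day 1, against 12.63 ± 0.26 on day 0 (SD, n = 3 each), a log2 difference of -2.24 ± 0.30 (limma adjusted p = 1.07e-06). EGR1, a zinc finger transcription factor, went the other way, with 7.60 ± 0.09 on day 1, against 5.56 ± 0.09 on day 0 (SD, n = 3 each). On day 11, 5 fell and 3 rose in BE (14.4% and 14.5% of all genes), 7 and 2 in NC (14.4% and 15.0%), and 5 and 2 in DSi cultures (13.7% and 13.8%). CCN1 (CYR61 in the table), a relative of CCN2, averaged 5.91 ± 0.28 in NC and 8.59 ± 1.32 in DSi cultures of day 11 (SD, n = 3 each), a log2 difference of -2.68 ± 0.39 (limma adjusted p = 9.55e-07). This standard error and p rest on a spread pooled over all groups, and the DSi arrays spread more widely than that.

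Of 11 tested regulators and surface markers of skeletal myogenesis, 0 rose or fell on days 1 and 3 or in DSi cultures of day 11 in limma's test. At an unadjusted p under 0.05 the count was 0 on day 1 and 1 in each of the other 3 comparisons. On day 11, 2 rose in BE cultures (14.5% of all genes), PAX3 and EYA1, and 5 rose in NC cultures (15.0%), these 2 among them. PAX3 is also in the list of neural crest markers. CDH15, the cadherin of muscle precursors, averaged 7.89 ± 0.18 in NC cultures of day 11 (SD, n = 3) and was at background on every array of the other 11 groups. It was at least 6.77-fold higher in NC than in BE cultures and at least 6.6-fold higher than in DSi cultures of that day. Of the myogenic factors, MYF5 and MYF6 were above background on 0 and MYOD1 and MYOG on 1 of the 3 NC arrays of day 11.

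**Figure D5:**
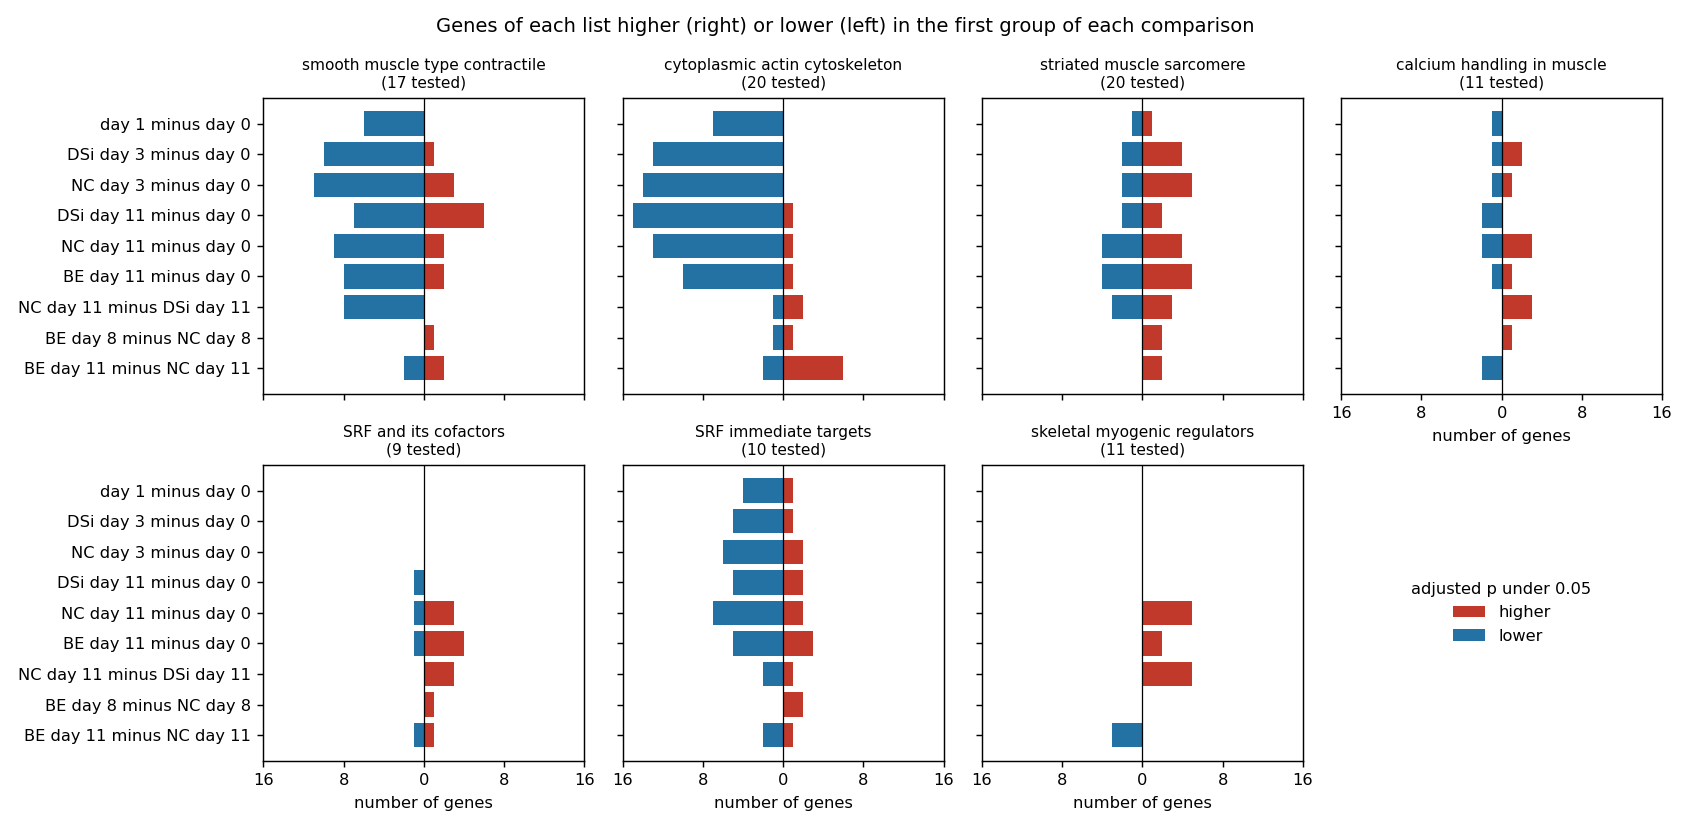
Number of genes of each list that were higher (red, right of 0) or lower (blue, left of 0) in the first group of each comparison with a limma adjusted p under 0.05. In the cytoplasmic actin list 13 to 15 of 20 genes are lower than on day 0 in the NC and DSi cultures of days 3 and 11, where 8.01% to 14.4% of all genes are lower.

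Marker lists of other cell types gave the following levels beside these courses, and their part in them was not tested. Of 7 smooth muscle cell markers, SMTN alone was above background on at least 2 arrays of a group, in every group, and MYH11, MYOCD, LMOD1, SYNPO2, AOC3 and PLN did not reach this in any group. The summed smooth muscle signal of an array lay between 193 and 227 in BE, 200 and 223 in NC and 208 and 235 in DSi cultures of day 11, against 205 to 225 on day 0. Of 7 skeletal muscle cell markers, CHRNA1 alone was above background by that measure in NC and in DSi cultures of day 11, and 0 were in BE cultures of day 11 or on day 0. Their summed signal was 182 to 210 in BE, 218 to 248 in NC and 202 to 208 in DSi cultures of day 11, against 189 to 215 on day 0. Of 9 cardiac muscle cell markers, 2 were above background in BE, 1 in NC and 1 in DSi cultures of day 11, against 4 on day 0, and the summed signal was 979 to 1530 on day 0, highest of all groups. On day 8, 4 of these 9 markers were above background in BE, 3 in NC and 3 in DSi cultures. Their summed signal on day 8 was 354 to 445 in BE, 325 to 405 in NC and 478 to 656 in DSi cultures.

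Fibroblast and mesenchyme markers differed between the cultures on the days on which ACTC1 and SLN did, and their part in those levels was not tested. Their summed signal per array was 5345 to 5912 in BE and 3776 to 4593 in NC cultures of day 8, against 1421 to 1601 in DSi cultures. On day 11 it was 5112 to 6905 in BE, 3063 to 4082 in NC and 1498 to 2304 in DSi cultures, beside 4023 to 4510 on day 0. The BE and NC sums of day 11 were apart, whereas ACTC1 and SLN overlapped between these cultures. On day 0 SLN was at background. Of the 9 genes, 9 were above background in BE, 7 in NC and 3 in DSi cultures of day 11, against 4 on day 0. THY1 averaged 11.16 ± 0.15 on day 0, its highest group (SD, n = 3). Of 6 mesoderm markers 0 were above background on day 0 and 1, HAND1, in BE and in NC cultures of day 8. HAND1 averaged 10.51 ± 0.50 in BE and 5.94 ± 0.55 in NC cultures of day 8 (SD, n = 3 each). Of 7 pericyte markers 3 were above background in BE and in NC cultures of day 8, with summed signals of 1060 to 1578 in BE and 811 to 1109 in NC cultures.

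Other lists differed along with single members, and their part in the levels was not tested either. Of 6 neuron markers, 3 were above background in BE, 5 in NC and 4 in DSi cultures of day 11, against 2 on day 0, with ELAVL4 missing in all of them. Their summed signal per array was 1401 to 1987 in BE, 7915 to 13386 in NC and 466 to 710 in DSi cultures of day 11, against 238 to 267 on day 0, so that it was highest in the group in which TNNC2 was above background on every array. Of 6 trophoblast or amnion markers, a list that shares HAND1 with the mesoderm list, 4 were above background in BE and in NC cultures of day 8 and 2 in DSi cultures. Their summed signal was 1722 to 3070 in BE, 743 to 1153 in NC and 231 to 316 in DSi cultures of day 8, the order of ACTC1 and SLN on that day. On day 11 it was 1054 to 5173 in BE, 369 to 714 in NC and 201 to 440 in DSi cultures. The summed signal of the 6 pluripotent stem cell markers was 3589 to 3654 in BE, 4465 to 5023 in NC and 3568 to 6081 in DSi cultures of day 11, against 14235 to 16232 on day 0, where ACTA1, ACTG2, TAGLN, CNN1 and MYL9 were highest too. Of these 6 markers, 3 were above background in each of the day 11 cultures, against 6 on day 0. POU5F1, NANOG and PRDM14 did not reach this in any day 11 culture, so the other markers make up most of those sums. On day 3, when ACTG2 differed from day 0 by -5.33 in NC and -5.34 in DSi cultures on the log2 scale, the sum was 11162 to 13192 in NC and 10444 to 12870 in DSi cultures. In both, 5 of the 6 pluripotent stem cell markers were above background, and NANOG was not.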

How the data were processed

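Gene expression was measured on 36 Illumina beadchips in 12 groups of 3, grouped by the labels. Per the file headers, the deposited table of 47323 probes holds average bead signals, an intensity on a linear scale not normalized between arrays, each with a detection p-value. A second deposited table held the authors' values for 34687 genes on the log2 scale, quantile normalized between arrays without background subtraction, as read from the values. The submitters' processing notes name Partek; no version or setting is given there.

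Since the probe table carried no gene names, a gene of the authors' table was tied to the run of neighbouring probes whose mean signal gave its values on all 36 arrays. This tied 34621 genes to 47194 probes, 278 of them by their place between tied genes; on genes held out from the match, 99.85% of genes agreed within 0.005 on the log2 scale. Intensities were background-corrected by normexp (limma 3.58.1 in R 4.3.3, offset 16), then quantile normalized and log2 transformed, so that differences of dim genes are understated. A probe was kept where 3 or more arrays had a detection p under 0.05, and of several probes the brightest on average was used for its gene. Group means were estimated in limma from all 36 arrays together (24 residual degrees of freedom, trended prior variance), tested two-sided, with p-values adjusted over 22787 genes by Benjamini-Hochberg, and the steps were tested on simulated data. Genes named from a list are among the 3 called ones of largest difference in a comparison, with their levels in other groups beside them; MYOD1, MYOG, MYF5, MYF6 and marker genes were named after their values were seen, and some listed genes are counted but not reported here by name.

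The members and lists were chosen with earlier results of these data known. Same-numbered replicates deviated together in the NC to DSi and the BE to NC comparison of day 11, with correlations of 0.156 to 0.224 and 0.156 to 0.205 between the arrays of a pair; the labels do not say what a number marks. Alternatives were other offsets, no background correction, the authors' values, median scaling, other filters, mean of probes, no trend, a replicate block and leaving out each replicate; scaling to the median of passing probes was added after seeing the data.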

Additional observations from a re-analysis of the deposited data

Results flagged for a closer look

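Some differences between 2 conditions pointed one way on 1 day and the other way on another day, with the arrays of both conditions apart on each of these days and at least 1 of them above background. The change between the days was not tested in any of them. Among the muscle actin and contractile genes this held for ACTA2, whose NC minus DSi difference in log2 level was -0.26 on day 6 and 0.86 on day 8.

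Among the listed contractile genes, ACTN3, a fast-fibre alpha-actinin, had a BE minus NC difference of 1.46 on day 8 and -0.72 on day 11. HRC, a calcium-binding protein of the sarcoplasmic reticulum, had a BE minus NC difference of 1.08 on day 8 and -1.13 on day 11, where no BE array was above background. For NC minus DSi, EYA1, a transcriptional coactivator, had -0.76 on day 6, where no NC array was above background, and 1.56 on day 11. FHL1, a LIM protein of muscle, had 0.98 on day 3 and -0.55 on day 11, and SYNM, the intermediate filament protein synemin, had 0.86 on day 3 and -0.74 on day 11, where no NC array was above background.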

How the results depend on the processing

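Every difference of the 9 genes in the 9 comparisons kept its sign wherever the arrays of the groups were apart, but their sizes depended on the background correction: of 81 such differences, 33 moved by more than the spread between replicates with the authors' values, 30 with no background correction, 19 with an offset of 50, 11 with the mean of probes, 11 and 6 with the median scalings described next, and 18 of 486 values without 1 array. Of the member differences of 1 or more, SLN in DSi cultures of day 11 minus day 0 was 0.60 with an offset of 50 and 0.49 with no background correction in place of 1.05, ACTG2 in NC minus DSi on day 11 was 0.62 and 0.46 in place of 1.09, and ACTC1 in BE minus NC on day 8 was 0.94 with the mean of its probes in place of 1.73. Median scaling over all probes, most of which lie at background, changed 3 counts of called genes by over 1.5 times: 1570 in place of 2537 for NC minus DSi on day 11, and, among the listed contractile genes, 5 in place of 9 for BE minus NC on day 8 and 15 in place of 23 on day 11. Scaled that way, the median of all genes shifted by -0.16 on day 1, -0.13 in NC cultures of day 3 and -0.14 in BE minus NC on day 8, and the share of called genes that were higher was 9.7% in place of 54.8% on day 1, 29.9% in place of 52.2% in DSi and 17.2% in place of 52.2% in NC cultures of day 3, 33.7% in place of 50.1% in DSi cultures of day 11, 45.0% in place of 67.3% in BE minus NC on day 8 and 66.6% in place of 53.5% on day 11. A median over the probes that passed the filter, chosen after seeing the data, gave 23.1%, 32.8%, 27.4%, 39.7%, 59.3% and 59.8% in the same order, 40.6% in place of 50.9% in NC cultures of day 11, and 2040 called genes for NC minus DSi on day 11. Leaving out 1 array at a time gave 614 to 821 called genes on day 1 in place of 1008, lowest without day 0 replicate 1 (614), day 0 replicate 2 (629) or day 1 replicate 3 (667), and 253 to 311 in BE minus NC on day 8 in place of 422, lowest without NC replicate 2 (253) or BE replicate 2 (277). ATP2A2 log2 difference, NC day 3 minus day 0, was 0.48 but -0.12 under median scaling and -0.08 with the mean of its probes, which disagree in direction. The cause was not tested. With a replicate block, 2830 genes were called for NC minus DSi on day 11 in place of 2537 and 2300 for BE minus NC in place of 2001, and among the listed genes 33 in place of 30 and 26 in place of 23; it ended no call. Genes at background in a group, such as ACTG2, CNN1, TNNC2 and SLN, have only bounds there.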
